A study of Mus musculus with 9 samples.

Results

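The hairpin shTdp-43-1 was compared with a control hairpin (shCont) in primary cortical neurons, to ask which transcripts and exons change when Tdp-43 is depleted. The arrays were chosen by their titles, 3 with shTdp-43-1 and 3 with shCont, which makes 6 of the 9 arrays of the series. The other 3 carry a second hairpin, shTdp-43-2, and serve here to show where the response to shTdp-43-1 differs. The neurons came from the cortex of C57Bl/6 mouse embryos at embryonic day 15, without meninges, and no allele other than the hairpin is named. All 3 groups received AraC, which kills dividing cells, on day 2 and a lentivirus on day 5 for 4 h. RNA was taken on day 11, after 6 more days of culture, and 100 ng of RNA went onto each Mouse Exon 1.0 ST array, which reads each exon with its own probe sets. The design text of the series instead names motor neurons harvested 11 days after transfection; the labels of the samples, which name cortical neurons, were followed. The labels do not say whether the arrays of a group came from separate cultures or animals, so the p-values measure the spread between these samples, which may be technical. These are bulk cultures, in which fewer cells of a type and less RNA per cell cannot be told apart.

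Tdp-43, encoded by Tardbp, is a nuclear RNA-binding protein that prefers UG-rich stretches. It keeps cryptic exons out of mature transcripts, controls alternative exons, helps to sustain neuronal transcripts with very long introns and limits its own mRNA. In amyotrophic lateral sclerosis (ALS) and in much of frontotemporal lobar degeneration (FTLD), it leaves the nucleus of affected neurons and aggregates.

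A gene value is the mean log2 value of the probe sets that name this gene alone and whose 9-array mean was at or above 6.07, the table's median. In all, 16770 genes with 3 or more such probe sets were tested. The spread within a group was small, with a median SD per gene of 0.0929 in shCont and 0.116 in shTdp-43-1. Among the shTdp-43-1 arrays, replicates 2 and 3 correlated most closely across genes (r = 0.993), and replicate 1 correlated with them at 0.986 and 0.989. Over all probe sets, named or not, the shTdp-43-1 arrays had medians of 6.15 to 6.19, above the 6.04 to 6.06 of shCont, while the brightest 1% began at about the same level on both (12.52 to 12.54).

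Tardbp checked the labels. Its log2 value was 9.77, 9.94 and 10.06 on the control arrays and 7.84, 8.23 and 8.55 on the shTdp-43-1 arrays. The groups did not overlap, and replicate 1 of shTdp-43-1 had the lowest level. The change was -1.72 ± 0.186 (SE, n = 3 against 3, limma adjusted p = 0.000349), which leaves 30.4% of the control level. All 16 of its probe sets were lower, by amounts from -2.33 to -0.999, so that the loss ran along the whole measured transcript.

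With shTdp-43-1, 1865 genes (11.1% of those tested) passed an adjusted p of 0.05. Of these, 865 (5.16%) were higher and 1000 (5.96%) lower than in shCont. The called changes had a median size of 0.43 on the log2 scale, and 22 genes rose and 22 fell at least 2-fold. In 1859 of the called genes the 3 shTdp-43-1 arrays did not overlap the 3 controls. A call with 3 arrays per group favours such a gap, so this adds no separate support. The count of 1865 called genes rests on few arrays. Leaving out replicate 1, 2 or 3 of shCont gave 784, 915 or 1212 genes, and leaving out replicate 1, 2 or 3 of shTdp-43-1 gave 1770, 1013 or 1048. Taking the median instead of the mean of a gene's probe sets gave 1041. Array weights estimated by limma gave 3293. Centring every array on the median of its kept probe sets turned the surplus of lower genes into 1131 higher and 912 lower.

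The split of the calls differed between levels of expression, without a steady order. In bin 1 of 5 by level, the dimmest, 163 were higher and 68 lower, with a median change of 0.13 over all genes of that bin. In bin 3, 150 were higher and 276 lower, with a median of -0.05. Bin 2 had 142 higher and 155 lower, bin 4 had 208 and 283, and the brightest, bin 5, had 202 and 218. Over all probe sets, the 25th percentile was 4.53 on each shTdp-43-1 array and 4.39 to 4.41 in shCont, while the 10th percentiles overlapped (3.16 to 3.27 against 3.12 to 3.19). The part of that offset in the calls of dim genes was not tested.

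**Figure D1:**
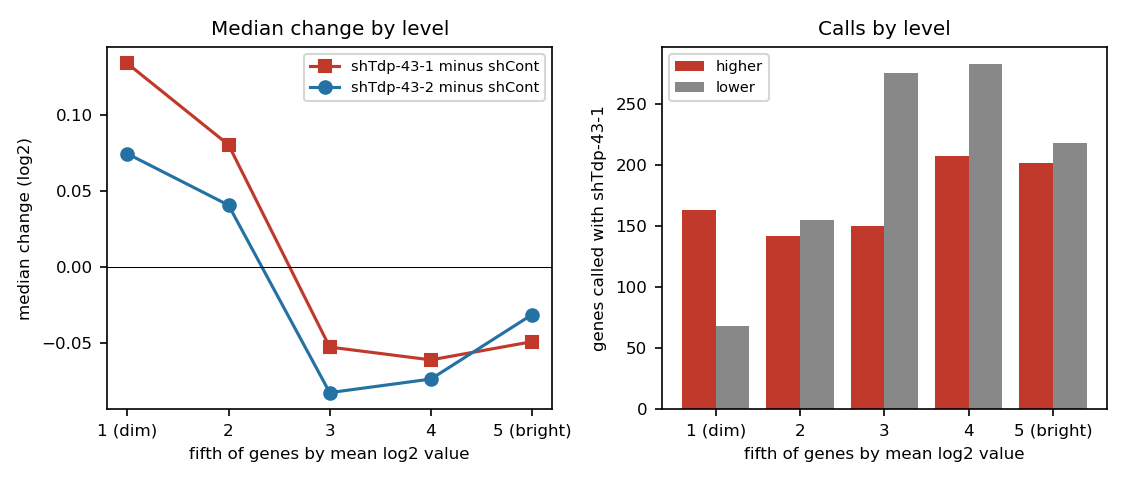
The left panel plots the median log2 change of all tested genes against shCont (y axis) in 5 bins of 3354 genes by mean log2 value (x axis), for shTdp-43-1 (squares) and shTdp-43-2 (circles). The right panel plots how many genes were called higher or lower with shTdp-43-1 in each bin; calls in the dimmest bin were mostly higher (163 against 68) and in bin 3 mostly lower (150 against 276).

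Rasgrf1, an exchange factor that turns on Ras in response to calcium, rose most. Its values were 7.98, 8.07 and 8.31 in shCont and 9.87, 9.65 and 9.53 in shTdp-43-1, a 2.96-fold increase (log2 1.57 ± 0.124 SE, adjusted p = 0.000106). Every shTdp-43-1 array stood more than 1 log2 unit above every control. Stx1a, the syntaxin of synaptic vesicle fusion, went from 9.09, 9.01 and 9.17 to 10.58, 10.37 and 10.16 (2.43-fold, adjusted p = 0.000106). Syt17, a member of the synaptotagmin family, went from 8.15, 7.95 and 8.11 to 9.82, 9.32 and 9.34 (2.68-fold, adjusted p = 0.000249). In all 3 genes the highest value was that of shTdp-43-1 replicate 1, the array with the least Tardbp. A relation of these values to the Tardbp level was not tested.

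That array often stood farthest from the controls. Among the 44 genes changed at least 2-fold it was the farthest of the 3 in 26, against 13 for replicate 2 and 5 for replicate 3. Among all 1865 called genes it was the farthest in 735 (39.4%). The median size of change in the called direction was nonetheless alike on the 3 arrays, at 0.43, 0.44 and 0.43. Across genes, the deviations of replicate 1 from its group mean correlated with those of replicate 1 of shCont (r = 0.40) and of shTdp-43-2 (0.59). The parts of the replicate number and of the Tardbp level in its distance from the controls were not tested.

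Ak7, an adenylate kinase, rose from 7.03, 6.61 and 6.90 to 8.41, 8.17 and 8.29 (2.71-fold, adjusted p = 0.000106). Smarcd1, a subunit of the SWI/SNF chromatin remodelling complex, rose from 9.90, 9.91 and 10.05 to 11.27, 11.18 and 11.14 (2.37-fold, adjusted p = 5.22e-05). Penk, from which enkephalins are cut, rose from 9.49, 9.49 and 10.15 to 10.84, 11.02 and 10.82 (2.27-fold, adjusted p = 0.000872). The 15 largest increases were chosen among genes without overlap. Of Ak7, Smarcd1 and Penk, the last had the narrowest gap, to shCont replicate 3. The other increases among the 15 largest were those of Qpctl, a Golgi glutaminyl cyclase (1.28), Mrps36, named for the mitochondrial ribosome (1.26), Idi1 of isoprenoid synthesis (1.18), the G protein subunit Gng7 (1.17), Tceal6 (1.17), Fam81a (1.12), the fatty acyl-CoA reductase Far2 (1.12), the chemokine receptor Ackr1 (1.06) and the integrin-linked kinase Ilk (1.06), all as log2 changes. All 15 were called in each of 21 other settings, or of 20 for Tceal6, which had too few probe sets for the setting that asked for at least 5.

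Trhr, the receptor for thyrotropin-releasing hormone, fell most after Tardbp, from 10.11, 9.70 and 10.03 to 8.69, 8.14 and 8.36 (log2 -1.54 ± 0.150 SE, adjusted p = 0.000218). Tgfbr1, the type I receptor for TGF-beta, fell from 10.98, 10.69 and 10.35 to 9.36, 9.28 and 9.28 (-1.36 ± 0.135, adjusted p = 0.000249). The shTdp-43-1 arrays of Tgfbr1 lay within 0.1 of each other, while the controls were spread over more than 0.6. Bgn, the matrix proteoglycan biglycan, fell from 10.09, 9.99 and 10.01 to 8.57, 8.88 and 8.60 (-1.35 ± 0.0998, adjusted p = 0.000106). Cps1, the entry enzyme of the urea cycle, fell from 7.997, 7.79 and 7.52 to 6.47, 6.40 and 6.36 (-1.36 ± 0.118, adjusted p = 0.000143), close to the dim end of the tested genes.

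The other large decreases included Agt, the precursor of angiotensin (-1.19), and the urea transporter Slc14a1 (-1.03). Structural and matrix genes were Cnn2, an actin-binding calponin (-1.23), Emp1, a membrane protein of epithelial and mesenchymal cells (-1.22), and Kera, the proteoglycan keratocan (-1.19). Signalling genes were the guanine nucleotide exchange factor Vav3 (-1.15), the phosphatase Ppef1 (-1.07), the orphan receptor Gpr21 (-1.03) and Kcne1l, an accessory subunit of potassium channels (-1.16). Tarsl2, a threonyl-tRNA synthetase, changed by -1.27. Klri2, a lectin-like receptor of natural killer cells, changed by -1.19, but 1 control array (7.48) lay almost at the shTdp-43-1 values of 7.46, 6.89 and 6.96, and the call was lost in 6 of 20 other settings, where its adjusted p reached 0.117. The other 14 decreases were called in all 21, or in all 20 that tested them for Kera and Kcne1l.

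**Figure D2:**
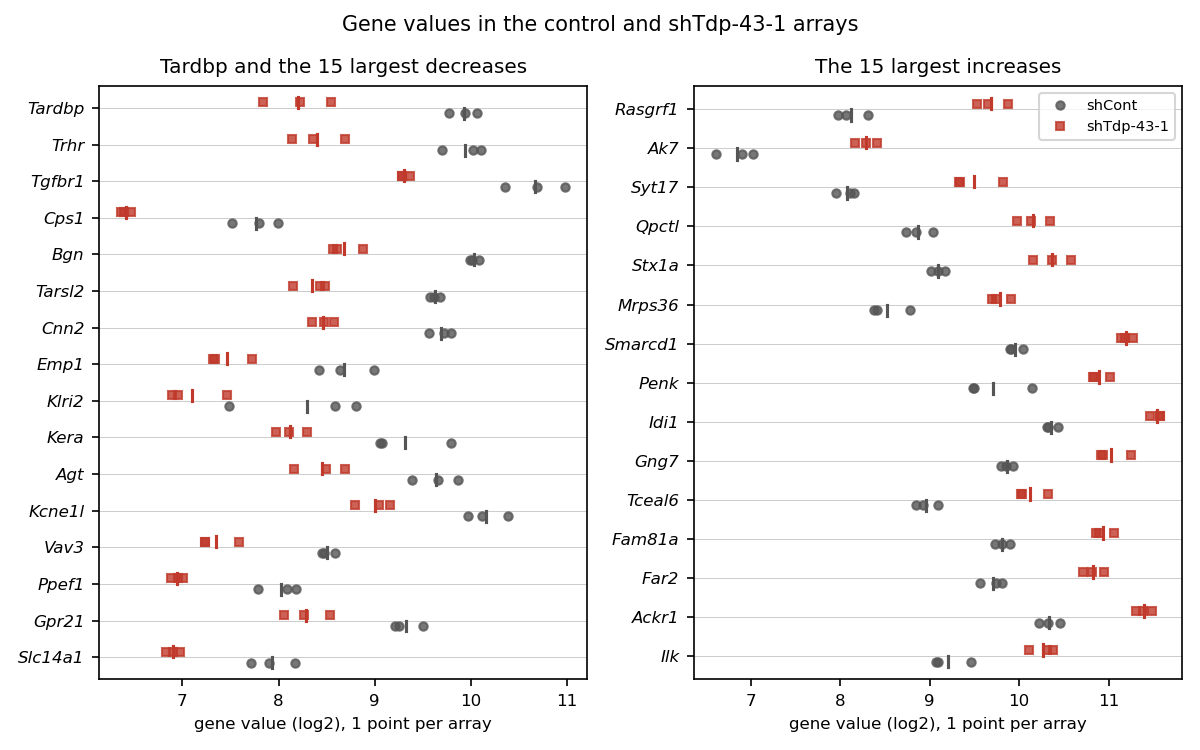
Each point is the log2 gene value (x axis) of 1 array for the gene named on the y axis, with shCont as circles, shTdp-43-1 as squares and group means as vertical ticks, n = 3 per group. The genes other than Tardbp were chosen among called genes without overlap, so the gap between the groups follows from that choice. It is smallest in Klri2 (7.46 against 7.48).

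Markers of the cell types that such a culture could hold were read beside these changes. The share called was 16.7% of 6 general neuronal and 14.3% of 14 astrocyte markers, against 11.1% of all tested genes. General neuronal markers were high, with Tubb3, the neuronal tubulin, at a mean of 12.33 in shCont, and 1 of 6 fell, the neurofilament Nefl. Astrocyte markers were also high (Aldoc 12.03, Gfap 11.16 in shCont), and of 14 tested Aqp4 fell (-0.43, lost in 8 of 21 other settings) and Gjb6 rose (0.32, lost in 12). None of 8 oligodendrocyte, 11 microglial and 6 endothelial markers was called by limma, with 1, 0 and 1 at an unadjusted p under 0.05.

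Neurons of both transmitter types changed in single markers. Of 10 excitatory markers Camk2a, the kinase of postsynaptic densities, rose (0.55), and the transcription factors Neurod6 (-0.42) and Cux1 (-0.39) fell. Of 13 inhibitory markers Gad2, which makes GABA in nerve endings, rose from 10.11, 9.99 and 10.05 to 10.87, 10.61 and 10.75 (0.69 ± 0.119, adjusted p = 0.00432). Its companion Gad1 rose by 0.29 and Dlx2 changed by -0.35, with calls lost in 8 and 12 of 21 other settings. Neurod6 was lost in 2 and Cux1 in 1. Of 9 markers of dividing progenitors 1 fell (11.1%), Eomes (-0.33, lost in 12). The summed log2 level of this list was 12.81 to 12.90 in shCont and 12.71 to 12.78 in shTdp-43-1, without overlap, unlike most of the 9 marker lists.

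Markers of fibroblasts and pericytes were in part lower on the arrays on which the matrix genes fell. Of 10 tested, Pdgfrb, the PDGF receptor of pericytes, fell (-0.71) and so did Rgs5 (-0.40, lost in 5 of 21 other settings). That is 20.0% of the list, against 11.1% of all tested genes. The summed level of the list, on the log2 scale, was 12.15 to 12.17 in shCont and 11.87 to 11.92 in shTdp-43-1. As in the progenitor list, the groups did not overlap, while in the sums of all other marker lists they did. With 3 arrays against 3, such a gap alone cannot give an exact two-sided p below 0.1. None of the fibroblast and pericyte markers read 0 on any array. Among them the collagens Col1a1, Col1a2 and Col3a1 had changes of 0.14, 0.14 and 0.15 that did not pass the test. Their part in the decreases of Bgn, Kera, Emp1 and Cnn2 was not tested.

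Gene lists were read against the 11.1% of all tested genes that were called. Of 27 lists of functions 13 lay above that share, and of 9 lists of cell type markers 5 did. In the list of cryptic exon hosts, genes that take up intron sequence when Tdp-43 is depleted, Camk1g rose and 4 fell, 5 of 9 in all, and the median change was -0.30 against 0.01 over all genes. Washc4, a subunit of the WASH complex on endosomes, went from 10.20, 10.23 and 10.43 to 9.10, 9.32 and 9.56 (-0.96 ± 0.128, adjusted p = 0.00117). No shTdp-43-1 array reached the lowest control. Tecpr1, which joins autophagosomes to lysosomes, changed by -0.39, the ribosome assembly factor Pno1 by -0.34 and the deubiquitinase Usp15 by -0.30. These 3 calls were lost in 8, 4 and 12 of 21 other settings, and over those settings 1 to 6 members fell. Camk1g, a calcium-dependent kinase, rose by 0.58 and was called in all 21.

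Of 20 synaptic genes with long introns that bind Tdp-43, 0 rose and 3 fell, namely the methyltransferase gene Smyd3 (-0.53), the splicing factor Rbfox1 (-0.33) and the adhesion gene Opcml (-0.28). Their calls were lost in 3, 5 and 11 of 21 other settings, and the list had a median of -0.05. Of 11 genes with exons that Tdp-43 controls, limma called 0 as genes and 0 had an unadjusted p under 0.05, with changes between -0.14 and 0.14.

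Among 24 genes linked to ALS and FTLD, 4 rose (16.7%, against 11.1% of all tested genes called) and 0 fell. C9orf72, the gene of the commonest inherited form of both diseases, went from 8.79, 8.74 and 9.01 to 9.63, 9.56 and 9.61 (0.75 ± 0.0883, adjusted p = 0.00053). Its shTdp-43-1 arrays lay within 0.1 of each other and well above the controls. The kinesin Kif5a rose by 0.55, Chmp2b, of endosomal sorting, by 0.44 and Grn, the progranulin precursor, by 0.39. Grn was lost in 7 of 21 other settings and Chmp2b in 2, and the median of the list was -0.07.

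Of 32 genes of synaptic vesicle fusion and recycling 5 rose (15.6%) and 0 fell. Besides Stx1a these were Amph, which bends membranes in endocytosis (0.76), the synapsin Syn3 (0.54), the active zone scaffold Bsn (0.54) and the vesicle glycoprotein Sv2b (0.36). Amph went from 11.01, 11.01 and 11.11 to 11.92, 11.78 and 11.70 (± 0.0822, adjusted p = 0.000349). The groups were far apart relative to their spread. Bsn and Sv2b were lost in 3 and 4 of 21 other settings, in which 3 to 7 members of the list rose.

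Of 31 genes of Ras and CaM kinase signalling 5 rose and 1 fell (19.4% in all, against 11.1% of all tested genes). Rasgrf1 led, followed by Camk2n1, an inhibitor of CaM kinase II, which went from 8.99, 9.02 and 9.14 to 10.15, 10.00 and 10.10 (2.05-fold, adjusted p = 0.000134). The kinases Camk1g and Camk2a rose by 0.58 and 0.55 and the GTPase Nras by 0.48. The exchange factor Sos1 fell (-0.59). So a kinase and its inhibitor rose on the same arrays. Of 35 genes for G protein subunits and RGS proteins, which speed up the turn-off of G proteins, 5 rose and 4 fell (25.7% in all). Gng7, Gnaz (0.74), Rgs2 (0.51) and Gng4 (0.47) rose, and Rgs16 (-0.96) and Rgs17 (-0.57) were the largest decreases. Rgs16 went from 9.92, 9.57 and 9.56 to 8.72, 8.88 and 8.57 (± 0.112, adjusted p = 0.000526), with no overlap.

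Of 27 neuropeptides and trophic factors 4 rose (14.8%, against 11.1% of all tested genes called), Penk among them, and 0 fell. Adcyap1, the precursor of PACAP, rose by 0.83, Tac1, the precursor of substance P, by 0.80 and the granin Scg2 by 0.33, the last with a call lost in 10 of 21 other settings. Adcyap1 was unequal among the controls (9.49, 9.36 and 8.69) and even among the shTdp-43-1 arrays (10.22, 9.95 and 9.85). In the lists of receptors and channels 3.12% to 9.09% of the tested members were called, against 11.1% of all tested genes. Of 11 GABA receptor genes Gabbr2, a subunit of the metabotropic GABA-B receptor, rose from 10.75, 10.77 and 10.75 to 11.81, 11.57 and 11.60 (0.90 ± 0.0932, adjusted p = 0.000302). Of 29 potassium channel genes Kcnj6 (0.61) and Kcnc2 (0.53) rose, of 32 sodium and calcium channel genes Cacna2d2 (0.50, lost in 10) and of 22 glutamate receptor genes Grik4 fell (-0.40, lost in 6). These last 3 shares were 6.90%, 3.12% and 4.55%. They depend on the setting: over the other settings 1 to 6 potassium channel genes rose and 0 to 3 fell, 0 to 2 sodium and calcium channel genes rose, and 0 to 2 glutamate receptor genes rose and 0 to 4 fell.

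Axon guidance genes were called at 34.2%, 4 of 38 higher and 9 lower. The semaphorin co-receptor Nrp1 fell from 10.77, 10.83 and 10.88 to 10.14, 10.15 and 10.10 (-0.70 ± 0.0912, adjusted p = 0.00101), and its ligands Sema3d (-0.70) and Sema3c (-0.68) fell as well. Plxnc1, a plexin for semaphorins (0.76), Slit3, a repellent for axons (0.71), and Unc5d, of the netrin receptors (0.67), rose. Sema3d and Sema3c were lost in 9 and 4 of 21 other settings, in which 4 to 7 members rose and 4 to 11 fell. Of 34 synaptic adhesion genes Cdh11 (-0.49) and Opcml fell (5.88% of the list).

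In the axonal cytoskeleton, 4 of 31 genes rose and 2 fell (19.4% in all, against 11.1% of all tested genes). The 2 were neurofilament subunits: Nefm went from 9.67, 9.62 and 9.40 to 9.01, 8.67 and 8.75 (-0.76 ± 0.114, adjusted p = 0.00224) and Nefl from 11.27, 11.37 and 11.25 to 10.78, 10.65 and 10.63 (-0.60 ± 0.0912, adjusted p = 0.00227). Prph, the filament protein peripherin, rose by 0.50, as did Kif5a (0.55), the spectrin Sptan1 (0.46) and the microtubule regulator Stmn4 (0.28, lost in 6 of 21 other settings). Stmn2, whose human transcript is cut short by a cryptic exon when Tdp-43 is lost, had a change of 0.01.

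Of 20 genes of cholesterol synthesis and its SREBP control 4 rose (20.0%) and 0 fell, and the median was 0.17. Idi1 rose from 10.32, 10.43 and 10.31 to 11.47, 11.57 and 11.57 (1.18 ± 0.136, adjusted p = 0.00048). The groups were separated by about 1 log2 unit. The lanosterol synthase Lss, the sterol sensor Insig1 and the squalene epoxidase Sqle each rose by 0.41, with calls lost in 6, 3 and 2 of 21 other settings. Of 30 genes induced by neuronal activity 4 rose (13.3%, against 11.1% of all tested genes called) and 0 fell. The median of this list was 0.20, and 2 to 11 of its members rose in the other settings. The phosphatase Dusp1, which turns off MAP kinases, went from 10.23, 9.95 and 10.18 to 10.49, 10.98 and 10.69 (0.60 ± 0.120, adjusted p = 0.0095). Here replicate 1 was the lowest of the shTdp-43-1 arrays. Dusp6 rose by 0.53 and Egr4 by 0.35, while Fosb had a change of 0.89 with overlapping groups (7.40, 7.78 and 8.08 against 7.99, 9.13 and 8.80). Egr4 was lost in 6 and Fosb in 13 of 21 other settings.

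**Figure D3:**
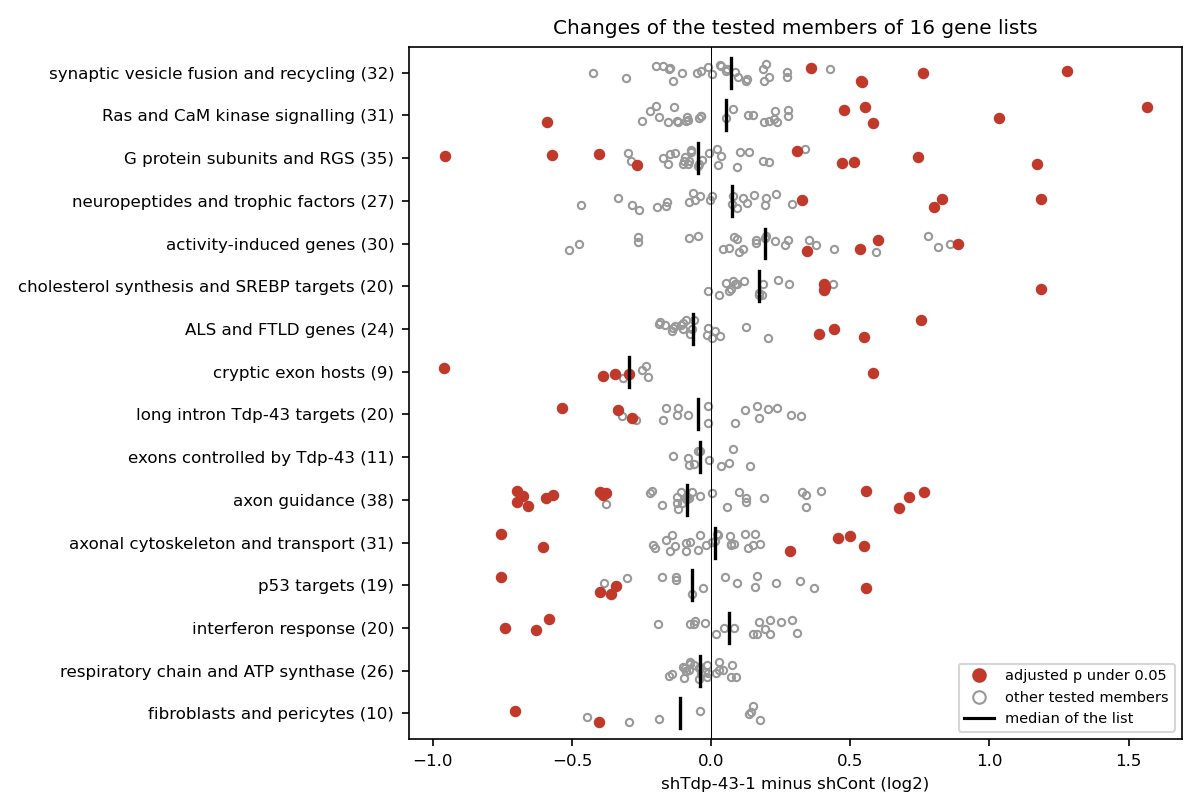
Each point is the log2 change of 1 tested gene, shTdp-43-1 minus shCont (x axis), in the list named on the y axis with its number of tested genes; filled points passed an adjusted p of 0.05, open points did not, and the black tick is the median of the list. The cryptic exon hosts lie lowest (median -0.30), called genes of the synaptic vesicle and cholesterol lists all lie above 0, and the respiratory chain has no called gene.

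Members of the cholesterol and activity lists that rose were searched for the motif of a well known regulator of each, in RefSeq promoter windows of the GRCm38.p6 build. The sterol regulatory element, searched as TCACNCCAC on both strands, was present in 1.24% of all 32851 windows, in those of 1.5% of the tested genes with a window, and in 0 of the 3 called cholesterol genes with a window. Of all 17 cholesterol genes with a window 1 held it, Hmgcs1, which was not called. The cAMP response element, searched as TGACGTCA, which reads the same on both strands, was in 1.79% of windows, in those of 3.05% of the tested genes, and in 1 of the 4 called activity genes. That gene was Dusp1, and of all 22 activity genes with a window the other that held it was Btg2, which was not called. The 250 bases upstream of the start sites of Dusp1 (chr17:26508473-26508722, minus strand) and of Idi1 (chr13:8885356-8885605, plus strand) are given to show a called gene with the element, in capitals, and the most changed cholesterol gene without one.
Dusp1: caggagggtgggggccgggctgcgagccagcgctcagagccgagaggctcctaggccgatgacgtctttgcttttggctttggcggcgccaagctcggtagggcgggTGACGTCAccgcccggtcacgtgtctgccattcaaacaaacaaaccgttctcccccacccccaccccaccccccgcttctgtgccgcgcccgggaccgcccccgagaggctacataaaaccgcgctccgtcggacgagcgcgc
Idi1: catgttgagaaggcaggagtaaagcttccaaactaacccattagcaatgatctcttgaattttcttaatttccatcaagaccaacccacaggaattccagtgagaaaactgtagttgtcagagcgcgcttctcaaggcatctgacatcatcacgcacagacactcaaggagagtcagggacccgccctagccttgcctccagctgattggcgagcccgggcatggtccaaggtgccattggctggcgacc
The element in Dusp1 begins 143 bases before the start site. A match describes letters only.

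Stress programmes were mixed. Of 19 p53 targets 26.3% were called, against 11.1% of all tested genes. Zmat3 rose (0.56) and 4 fell, led by Trp53inp1 (-0.76) and the apoptosis-linked nuclease Aen (-0.40). Rrm2b (-0.36) and Ccng1 (-0.34) were lost in 10 and 3 of 21 other settings. Of 20 interferon response genes 0 rose and 3 fell, namely the peptide transporter Tap1 (-0.74), Oasl2 (-0.63) and B2m, the light chain of MHC class I (-0.58). Tap1 went from 8.78, 8.54 and 8.40 to 8.02, 7.76 and 7.71 (± 0.114, adjusted p = 0.00244), and Oasl2 and B2m were lost in 5 and 4 settings. Of 26 genes of the endoplasmic reticulum and integrated stress responses 1 fell (3.85%), Ddit4 (-0.34, lost in 10). Of 13 heat shock genes 1 rose (7.69%), the small chaperone Cryab (0.41, lost in 12).

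In the housekeeping lists 0% to 10.3% of the tested members were called, against 11.1% of all tested genes. Of 26 genes of the respiratory chain and ATP synthase limma called 0, 0 had an unadjusted p under 0.05, and changes ran from -0.15 to 0.09. Of 19 glycolysis genes the glucose transporter Slc2a1 fell (-0.48, lost in 4 of 21 other settings). Of 41 splicing regulators Celf2 rose (0.28, lost in 10) and Khdrbs2 (-0.38) and Rbfox1 fell. Of 29 autophagy and lysosome genes Grn rose and Atg7 (-0.52) and the protease Ctsl (-0.34, lost in 7) fell. Of 28 proteasome genes Psma7 (-0.36, lost in 11) and Psmd11 (-0.27, lost in 8) fell, and of 17 genes of the microRNA machinery the Argonaute Ago2 rose (0.52, lost in 3).

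To find what belongs to shTdp-43-1 rather than to both hairpins, the difference between the hairpins was tested itself. It was called for 1934 genes (11.5%), 1226 higher and 708 lower with shTdp-43-1. The 2 comparisons against shCont share the control arrays, so their values are given side by side and not correlated. A gene was counted where it was called against shCont and, in the same direction, against shTdp-43-2. Both calls use the same shTdp-43-1 arrays, so they are not independent. The genes so counted were 315 (1.88%), 152 higher and 163 lower. Of these, 130 and 141 were not called with shTdp-43-2, 11 and 12 were called in the same direction, and 11 and 10 in the opposite one. A further 492 genes were called with shTdp-43-1 alone but their difference was not, so a lack of a call with shTdp-43-2 does not set them apart. The count of 315 dropped when some single arrays were left out, to 143 and 151 for replicates 1 and 2 of shCont. It was 153 and 171 without replicates 2 and 3 of shTdp-43-1 and 169 without replicate 1 of shTdp-43-2. Without replicate 1 of shTdp-43-1 it was 298, and without replicate 3 of shTdp-43-2 it rose to 415. The median of the probe sets gave 164 and array weights gave 627.

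Mc4r, the melanocortin receptor of appetite circuits, moved most differently. It was 10.59, 10.55 and 10.29 in shCont, 9.67, 9.90 and 9.78 in shTdp-43-1 and 11.66, 11.68 and 11.75 in shTdp-43-2. The 3 groups did not overlap, with the controls in the middle. The changes were -0.69 and 1.22, and the difference was -1.91 ± 0.0965 (SE, n = 3 against 3, adjusted p = 2.38e-06). Rxfp1, the relaxin receptor, followed the same order (-0.68 and 0.95, difference -1.63, adjusted p = 8.02e-05), and so did the guidance ligand Sema3c (-0.68 and 0.71, difference -1.39, adjusted p = 0.000235). Tardbp itself differed by -0.03 between the hairpins, with a 95% interval from -0.43 to 0.38.

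Other genes fell with shTdp-43-1 and had no called change with shTdp-43-2. Htr1a, the inhibitory serotonin receptor, was 9.22, 8.99 and 8.83 in shCont, 8.38, 8.06 and 7.87 in shTdp-43-1 and 9.48, 9.28 and 9.26 in shTdp-43-2 (difference -1.24, adjusted p = 0.00032). Emp1 was 8.99, 8.64 and 8.42 in shCont, 7.32, 7.72 and 7.34 in shTdp-43-1 and 8.82, 8.65 and 8.30 in shTdp-43-2 (difference -1.13, adjusted p = 0.00163). In both genes the shTdp-43-1 arrays lay below all 6 others, which the choice of genes by both calls favours. The matrix genes Col12a1, a fibril-associated collagen (-0.72 and 0.22), and Thbs1, thrombospondin 1 (-0.67 and 0.27), had differences of -0.94 each. The summed level of the fibroblast and pericyte markers was 11.55 to 11.69 with shTdp-43-2 and 11.87 to 11.92 with shTdp-43-1. The part of such cells in the decreases of Col12a1, Thbs1 and Emp1 was not tested. Itm2a had values of -0.57 and 0.32. Rbms2 (-0.46 and 0.52) and the peroxidase Gpx8 (-0.50 and 0.42), the rest of the 10 lowest, were called with both hairpins in opposite directions.

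Among the genes higher with shTdp-43-1, Sprn, which encodes the prion-like protein shadoo, was 10.03, 10.03 and 9.94 in shCont, 11.18, 10.92 and 10.74 in shTdp-43-1 and 10.09, 10.06 and 10.01 in shTdp-43-2 (difference 0.89, adjusted p = 0.00041). Cpd, a carboxypeptidase of the secretory pathway, was 9.87, 9.96 and 9.95, then 11.00, 10.58 and 10.79, then 9.90, 10.06 and 9.69 in the same order (difference 0.90, adjusted p = 0.000764). Chrna3, a nicotinic acetylcholine receptor subunit, rose by 0.92 and had a change of 0.01 with shTdp-43-2. In Sprn and Cpd the shTdp-43-1 arrays lay above all 6 others, which again the choice of genes favours. Those 6 overlapped among themselves. Fam163a (0.75 and -0.57), Scarb1, the HDL receptor (0.49 and -0.78), Cr2, a complement receptor (0.42 and -0.58), Tppp, a tubulin-binding protein (0.53 and -0.44), and Impdh1, of guanine nucleotide synthesis (0.44 and -0.50), were called in opposite directions. Adgrg2 (0.68 and -0.35) and Dbpht2 (0.73 and -0.25) were called with shTdp-43-1 alone.

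Of these 20 genes, the call against shCont was lost in some of 21 other settings for Scarb1 (11), Adgrg2 and Itm2a (7 each), Cr2 and Tppp (6 each), Rbms2 (5), Sema3c (4), Impdh1 (3) and Gpx8 (2). Genes with large changes differed by size as well. Smarcd1 was 11.27, 11.18 and 11.14 with shTdp-43-1 and 10.30, 10.36 and 10.28 with shTdp-43-2 (difference 0.88, adjusted p = 8.51e-05), both above shCont. Ak7 (difference 0.61), Tgfbr1 (-0.61) and Bgn (-0.48) also changed more with shTdp-43-1, with adjusted p of 0.00642, 0.0141 and 0.0104, and Agt changed less (1.02, adjusted p = 0.00103).

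Some list members took part. Kcnc2, a fast potassium channel, was 8.64, 8.45 and 8.84 in shCont, 9.30, 9.14 and 9.08 in shTdp-43-1 and 8.37, 8.40 and 8.29 in shTdp-43-2 (difference 0.82, adjusted p = 0.000616). Gad1 rose with shTdp-43-1 (0.29) and fell with shTdp-43-2 (-0.32, difference 0.61, adjusted p = 0.00075), while Gad2 changed by 0.69 and 0.65. Ago2 (0.52 and -0.17), Camk2a (0.55 and 0.17), Rgs16 (-0.96 and -0.26), Aen (-0.40 and -0.07) and Psmd11 (-0.27 and 0.08) also differed, with adjusted p of 0.00419, 0.0167, 0.00253, 0.0185 and 0.00833. In the other sense, Cryab rose by 1.80 with shTdp-43-2 against 0.41, and Prph by 1.23 against 0.50.

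**Figure D4:**
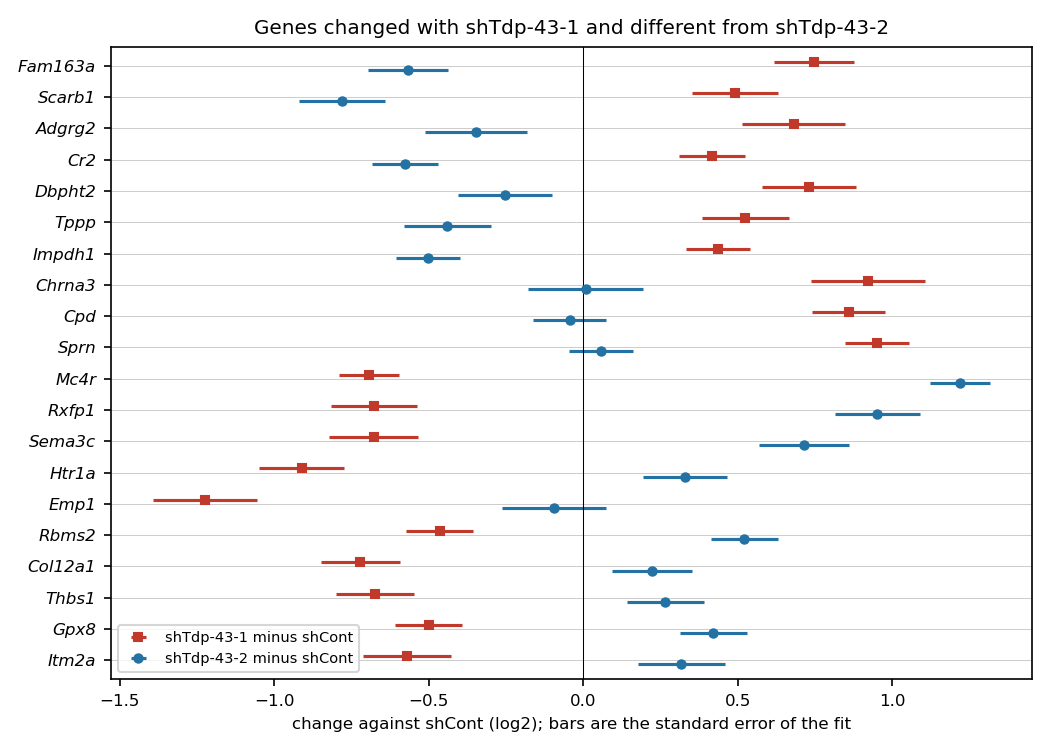
The x axis is the log2 change against shCont with shTdp-43-1 (squares) and shTdp-43-2 (circles), with bars for the standard error of the fit over 3 arrays per group, for the 10 genes highest and the 10 lowest in the hairpin difference among those also called against shCont. Chrna3, Cpd, Sprn and Emp1 lie near 0 with shTdp-43-2 (0.01, -0.04, 0.06 and -0.10), and the other 16 genes lie on opposite sides of 0 with the 2 hairpins.

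Usage of single probe sets was then read. The usage change of a probe set is its own log2 change minus that of the other kept probe sets of its gene. The limma function diffSplice called 1229 of 248701 probe sets (0.494%), 638 higher and 591 lower, in 994 genes. It uses 1 spread for all probe sets of a gene. A second test, added after seeing the data, gave each probe set its own spread and called 13 probe sets (0.00523%), 9 higher and 4 lower, in 12 genes; 19363 had an unadjusted p under 0.05 in that test. All 13 were also called by diffSplice. Called probe sets of diffSplice alone were dim, with a median level of 7.19 against 9.24 for all and 9.12 for the 13. Of the 12 genes, 10 were not called as genes. The count of 13 dropped to 0 or 1 when any 1 of the 6 shCont and shTdp-43-1 arrays was left out, to 1 with no dim filter and to 1 with only those 6 arrays in the fit.

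The largest was in Camk2a, where probe set 5216450 was 10.47, 10.57 and 10.28 in shCont and 8.96, 8.74 and 8.62 in shTdp-43-1. It fell while the other probe sets of the gene, 32 kept in all, rose by 0.62. Its usage change was -2.29 ± 0.127 (SE, n = 3 against 3, adjusted p = 0.00328 with its own spread and 1.47e-21 with diffSplice). Dnm1, the dynamin that pinches off synaptic vesicles, had 2 such probe sets of 34. Probe set 5340607 went from 10.48, 10.19 and 10.26 to 8.65, 8.55 and 8.67 and 5372697 from 11.17, 11.09 and 10.91 to 9.34, 9.29 and 9.50, with usage changes of -1.59 and -1.57 (adjusted p = 0.0247 each). The gene value of Dnm1 was not called, and diffSplice called 6 of its probe sets, all lower. In Slc8a1, the sodium-calcium exchanger, probe set 4782942 went from 9.14, 9.12 and 9.08 to 7.29, 6.77 and 7.62 (usage -1.68, adjusted p = 0.0448). A dim probe set of the same gene, 5127034, had a usage change of 1.61 by diffSplice but an adjusted p of 0.192 with its own spread.

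Among those that rose, probe set 5085525 of Cemip2, a cell surface hyaluronidase, went from 7.91, 7.84 and 7.39 to 10.27, 9.20 and 9.06 while the rest of the gene changed by -0.41 (usage 2.21 ± 0.178, adjusted p = 0.0247). Replicate 1 was again the farthest from the controls. In Elk1, a transcription factor downstream of MAP kinases, probe set 4524358 went from 8.40, 8.31 and 8.52 to 10.22, 9.83 and 10.02 (usage 1.48, adjusted p = 0.0247). In Kcnma1, the BK potassium channel, probe set 4972911 went from 10.32, 10.47 and 10.47 to 11.74, 11.49 and 11.86 (usage 1.32, adjusted p = 0.0247). In none of these did the groups overlap.

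Dnajc5, the cysteine string protein of synaptic vesicles and a listed host of a Tdp-43 exon, had probe set 5415291 at 10.40, 10.19 and 10.13 in shCont and 11.86, 11.41 and 11.43 in shTdp-43-1 (usage 1.44 ± 0.137, adjusted p = 0.0349). The remaining 5 were in Pofut1, which adds fucose to Notch (usage 1.30), Uros, of haem synthesis (1.19), Podxl2 (1.12), the calcium channel Cacna1d (1.00) and the synaptic scaffold Anks1b (0.98). In Uros the probe set itself changed by 0.42 while the rest of the gene fell by 0.77, so the excess comes mostly from the decrease of the gene. Camk2a and Uros were the 2 of the 12 genes that were also called as genes.

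None of the 13 probe sets also differed between the hairpins in both tests. With shTdp-43-2 the usage changes were -2.53 in Camk2a, -1.14 and -1.08 in Dnm1, -1.42 in Slc8a1, 2.13 in Cemip2, 1.10 in Dnajc5, 1.47 in Elk1, 1.38 in Kcnma1 and 1.10 in Uros, all called with that probe set's own spread. In Anks1b (0.57), Cacna1d (0.62), Podxl2 (0.57) and Pofut1 (0.69) they were not called, but the differences from shTdp-43-1 were not either, with adjusted p from 0.181 to 0.324. None of the 13 was thus shown to belong to shTdp-43-1 alone.

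**Figure D5:**
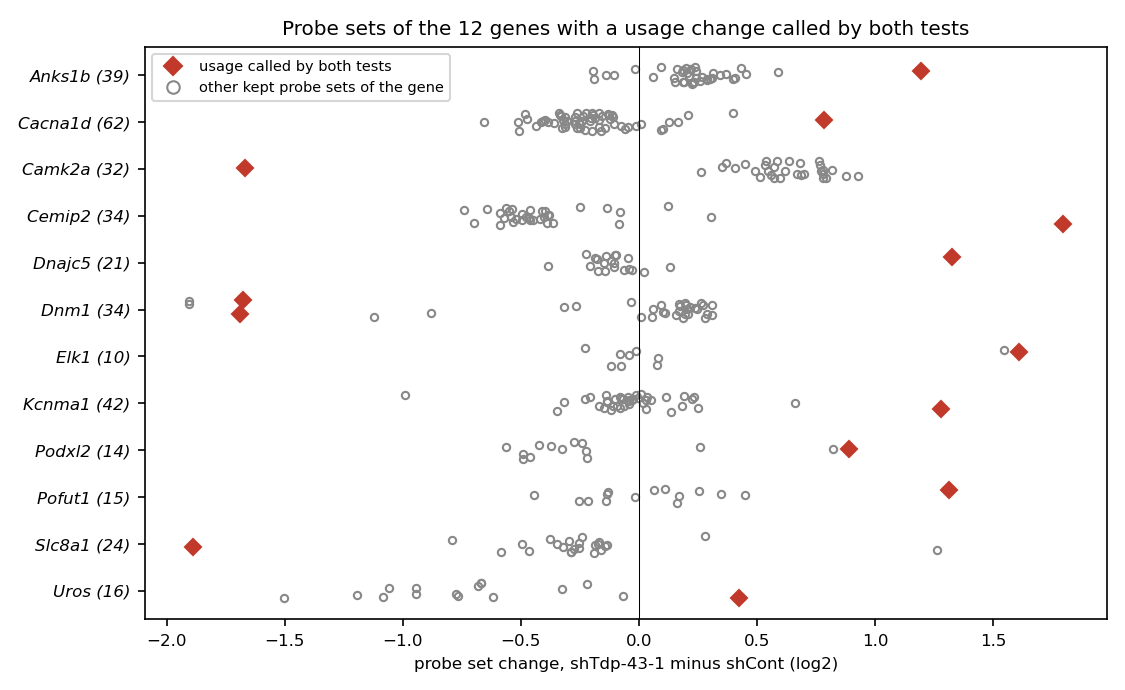
Each point is the log2 change of 1 kept probe set, shTdp-43-1 minus shCont (x axis), of the gene on the y axis, with the number of kept probe sets in brackets; diamonds are the 13 probe sets called by both usage tests and open circles the rest of the gene. The Camk2a diamond lies at -1.67 while the rest of that gene lies above 0, and the Cemip2 diamond lies at 1.80.

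Known targets were read one by one. The target lists had 11, 9 and 20 tested genes. In 12 of the listed targets diffSplice called 16 probe sets, in 12 cases upward and in 4 downward. Of these the probe set of Dnajc5 was also called with its own spread. Over all genes diffSplice called 0.494% of probe sets, in 994 of 16770 genes. The share among the probe sets of the targets was not computed, so the 16 are not read as an excess. In Sort1, the sortilin receptor with an alternative exon that Tdp-43 represses, probe sets 4453253 and 5130299 rose from means of 10.36 and 10.37 to 11.33 each, and 4576227 from 10.58 to 11.15, out of 62. Their usage changes were 1.05, 1.03 and 0.64 by diffSplice (adjusted p = 2.98e-06, 4.1e-06 and 0.0283), and with their own spread the adjusted p were 0.0816, 0.0596 and 0.15. With shTdp-43-2 they were 1.17, 1.15 and 0.62, with adjusted p of 0.0214, 0.0158 and 0.0708 in the limma test with their own spread. None of the 3 was called as different between the hairpins. In the synaptic adhesion gene Nrxn3 probe set 4477627 rose from 9.87 to 11.41 (usage 1.30, 0.00076 by diffSplice and 0.148 with its own spread). In Usp15 2 dim probe sets had usage changes of 1.12 and 0.90 by diffSplice, with adjusted p of 0.197 and 0.368 with their own spread, while the rest of the gene changed by -0.33 and -0.32. In Washc4 probe set 5457190 read 7.32 and 7.36 while the rest fell by 0.99, which gives a usage change of 1.03 (adjusted p = 0.259 with its own spread) with a change of 0.04 in the probe set itself. The other higher ones were in Tsn (1.28), Gria3 (1.11), Tecpr1 (0.79) and Ctnnd2 (0.55), with adjusted p of 0.177, 0.15, 0.445 and 0.489 with their own spread.

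Lower usage was called by diffSplice in the adhesion gene Lsamp (probe sets 4638350 and 4784480, -0.70 and -0.76), in the synaptic scaffold Dlg2 (4794986, -1.14) and in Rbfox1 (5133822, -0.84). With their own spread the adjusted p were 0.389, 0.522, 0.651 and 0.44. The Dlg2 probe set was 7.497, 7.70 and 6.28 in shCont and 7.37, 5.33 and 5.68 in shTdp-43-1, and that of Rbfox1 was 8.58, 7.67 and 8.14 and then 7.18, 7.41 and 6.36. The groups overlapped in Dlg2 and in both Lsamp probe sets but not in Rbfox1.

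Probe sets with little change of their own in a gene that fell, as in Washc4, were found among the largest usage calls. Of the 12 largest higher usage changes by diffSplice, 7 had a group mean below the table median of 6.07, 5 were in genes that fell as genes, and 1 was called with its own spread. In Cps1 probe set 5422512 went only from 5.96 to 6.34 while the other probe sets fell by 1.43. Bgn, Tdo2, Cnn2 and Tarsl2 had probe sets of this kind (usage 1.62, 1.57, 1.55 and 1.53). The rest of the 12 were Cemip2 and Slc8a1, given above, Hibch (1.79), Gskip (1.73), Mfsd4a (1.61), Ranbp17 (1.605) and Ankrd63 (1.53). In Hibch the value rests on shCont replicate 3, which read 4.65 against 10.05 and 9.85 on the other controls; without it the usage change was -0.0285. Of the 12 largest lower ones, 6 had a group mean below the table median and 2 were called with their own spread. The lower mean of Plb1 probe set 4395764 was 5.37, from 7.54 in shCont (usage -2.04). Besides Camk2a and Slc8a1 the others were Pdlim5 (-1.82), Dnm1 (-1.81), Il12rb2 (-1.80), Nlrp4f (-1.69), Lpar3 (-1.65), Diaph3 (-1.63), Wdr49 (-1.59), Lig1 (-1.54) and Aldh1a1 (-1.52), none of them called with its own spread.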

How the data were processed

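Mouse Exon 1.0 ST arrays measured total RNA in 9 samples, 3 per group; their number limits the precision. The deposited table holds log2 values per probe set that the authors made with RMA in Affymetrix Expression Console (all-exon analysis), per the labels. The submitters' processing notes name mm9 as well, and versions were not found there. RMA sets the arrays to one distribution, which removes shifts shared by most probes, and compresses dim values. No per-sample column was unused.

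Of 1256831 probe sets, 318760 had 1 gene symbol in the platform annotation, 6684 several and 931387 none. Symbols were updated through RefSeq names (4227 changed, 63 kept as given). Probe sets with 1 symbol and a 9-array mean of at least 6.07 were averaged per gene (at least 3), giving 16770 genes from 248701 probe sets.

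All 9 arrays were fitted in limma 3.58.1 (R 4.3.3; lmFit, eBayes, 6 residual degrees of freedom; log2 scale), with Benjamini-Hochberg adjustment over all genes or probe sets and calls at an adjusted p under 0.05. Usage was tested with diffSplice and, as an added test, with limma on each probe set minus the mean of its gene's other kept probe sets. The scripts were tested on simulated data. With 3 against 3, exact permutation cannot give a two-sided p below 0.1, so none was run. The members, the 36 lists (764 genes, 712 tested) and the tests were chosen with earlier results of these data known. Genes were named by a rule: Tardbp, the 15 largest called changes each way without overlap, the 10 largest hairpin differences each way, the 5 largest opposite calls each way, and up to 6 called members of each list. The 12 largest usage changes each way by diffSplice, 1 per gene, and called probe sets of Tdp-43 targets were named too; clone-like names were passed over. The usage changes called by both tests, Stmn2, and marker genes given by level were chosen after their values were seen. Promoter windows came from RefSeq (GRCm38.p6) and were searched for all members of 2 lists that have one. Alternatives were other dim filters, scalings, summaries, fits and leaving out each array.

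The numbers were not taken to pair the samples, since not every same-numbered pair deviated together (number 2 did not). The arrays numbered 1 did deviate together across the groups (r = 0.40, 0.34 and 0.59).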

Additional observations from a re-analysis of the deposited data

Results flagged for a closer look

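For 21 genes the effects of the 2 hairpins against the same controls had opposite directions, each called, and the hairpin difference was called as well. Higher with shTdp-43-1 were Fam163a (shTdp-43-1 minus shTdp-43-2, log2 1.31), Scarb1 (1.27), Cr2 (0.99), Tppp (0.97), Impdh1 (0.94), Asb1 (0.85), Ctps2 (0.85), Tmem255b (0.79), Rarb (0.75), Gle1 (0.73) and Gad1 (0.61). Lower with shTdp-43-1 were Mc4r (-1.91), Rxfp1 (-1.63), Sema3c (-1.39), Rbms2 (-0.99), Gpx8 (-0.92), Hpgd (-0.88), Ska2 (-0.83), Rnf182 (-0.78), Nab1 (-0.76) and Tgfb2 (-0.61).

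Gad1 makes GABA, Rarb is a retinoic acid receptor and Ctps2 makes CTP. Ctps2 had changes of 0.43 and -0.43 against shCont, with its call for shTdp-43-1 lost in 4 of 21 other settings. Tgfb2, a TGF-beta ligand, changed by -0.34 and 0.28.

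Probe sets without a gene symbol entered no comparison above. Of 370625 such probe sets at or above the table median, 77 were called higher and 43 lower with shTdp-43-1, tested one by one with limma, beside 242 and 168 of 257797 with symbols. Their median change was 0.11, against -0.01 for those with symbols, in the same direction as the higher median of the shTdp-43-1 arrays over all probe sets.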

How the results depend on the processing

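The Tardbp change kept its direction and call in all 21 other settings (-1.89 to -1.54). Of 130 named genes 69 were called in all 21 and 4 in all 20 that tested them, 27 lost the call in 1 to 5 and 30 in more, and none turned sign. Array weights gave 3293 genes (1530 higher, 1763 lower; 627 also against shTdp-43-2), and the median of the probe sets gave 1041 (486, 555; 164). Leaving out 1 array gave 784 to 2224 genes (387 to 1065 higher, 374 to 1159 lower), 143 to 415 genes also against shTdp-43-2 and 625 to 1630 usage calls. The usage calls of diffSplice, 1229, were 1993 when probe sets down to the 25th percentile were kept, 2275 with no filter, 1862 with only the arrays of the comparison, and 13 with the spread of each probe set; that last count was 1 to 15 in the settings that kept all arrays and 0 to 8 with 1 array left out. Hibch probe set 4415995 ranged from 2.71 without shCont replicate 1 to -0.0285 without shCont replicate 3, around a main value of 1.79. The causes were not tested.

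The replicate number as a block gave 2353 genes and 2644 usage calls. Same-numbered arrays of shCont and shTdp-43-1 had correlations of their deviations of 0.40, -0.08 and 0.32. Those of shTdp-43-1 and shTdp-43-2 were 0.59, -0.38 and 0.15, and those of shCont and shTdp-43-2 were 0.34, 0.04 and 0.13. In both other groups 3 of 9 arrays correlated best with their own number, and these were the arrays numbered 1. Depth is not defined for arrays; dim probe sets, with signal near background, limit what can be seen.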
